A study of Mus musculus with 2 samples.

Results

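The proteasome subunit genes of the newborn mouse forebrain were examined. Members were the protein-coding genes of GENCODE M21 whose symbol is Psma, Psmb, Psmc, Psmd, Psme or Psmf followed only by digits, and 44 of the 43346 genes in the deposited tables met this rule, which uses no measured value. Both libraries belonged to 1 group: total RNA from the forebrain of a newborn pup (postnatal day 0) of strain B6NCrl, 1 forebrain per library, prepared from 10 ng of RNA longer than 200 nt, with spike-in RNAs added. Pup 1 was replicate 1 and pup 3 was replicate 2. No treatment, genotype or second tissue is given by the labels, both pups carry the same donor identifier, and sex was not collected. The libraries were taken as 2 animals from their pup numbers, and each n = 2, SD and coefficient of variation rests on that. The design therefore holds no contrast between conditions. The values describe levels and the spread between the 2 pups, since an exact sign-flip test of 2 values (two-sided) has a smallest p of 0.5.

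The proteasome degrades proteins tagged with ubiquitin. Its core particle is a barrel of alpha and beta subunits, with the proteolytic sites on 3 of the beta subunits. A regulatory cap at the end of the barrel holds a ring of ATPases, which unfold the substrate, and non-ATPase subunits, which bind ubiquitin chains and remove them. Interferon-gamma induces 3 alternative catalytic beta subunits, the immunoproteasome, which change the peptides released for antigen presentation. Other activators can bind the barrel in place of the cap. In neurons, protein turnover by the proteasome takes part in axon growth and in the remodelling of synapses.

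The depth was 40066386 expected counts in pup 1 and 40431595 in pup 3. The biological coefficient of variation estimated by edgeR was 0.17. All 7 forebrain markers reached 1 TPM in both pups, and none of the 5 lymphocyte, 3 testis or 2 thymic epithelium markers did. TPM is a level divided by transcript length and scaled to a fixed total per library, which puts different genes on a common scale. Comparisons of genes of unlike length are less certain, because the ratio between the pups moved with length, as given below. Members held 0.976% of TPM and 0.711% of counts in pup 1, and 1.03% of TPM and 0.806% of counts in pup 3. TPM reached 1 in both pups for 42 of the 44 members. The median over all 44 was 219 TPM, beside 17 TPM over 13030 protein-coding genes with 1 TPM or more in both pups.

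The core particle was the most abundant group. Its 14 constitutive genes, Psma1 to Psma7 and Psmb1 to Psmb7, had a median of 383 TPM in pup 1 and 423 TPM in pup 3, and each lay at percentile 94.6 or above among detected protein-coding genes. Psmb6, the beta subunit that carries the caspase-like proteolytic site, was the highest at 711 and 853 TPM (782 ± 100.3 TPM, SD, n = 2), on chromosome 11 from 70525367 to 70527858 of build mm10. Psma7, an alpha subunit, followed at 506 and 612 TPM (559 ± 74.8 TPM). Psma3, another alpha subunit, stood at 512 and 567 TPM (540 ± 39.3 TPM), a value that is uncertain because of a near-identical copy described with the transcripts. The lowest were the alpha subunits Psma5 at 207 and 231 TPM (219 ± 17.3 TPM) and Psma4 at 249.6 and 263 TPM (256 ± 9.5 TPM), then the beta subunit Psmb7, which carries the trypsin-like site, at 271 and 300.5 TPM (286 ± 20.9 TPM). The other 8 genes ranged from 303 TPM for Psma1 in pup 1 to 516 TPM for Psmb3 in pup 3. Psmb6 was highest and Psma5 lowest in both pups, and Psmb6 was 3.44 times Psma5 in pup 1 and 3.69 times in pup 3. As background, the assembled barrel holds each subunit in equal number. Alpha and beta genes had similar medians, 379 and 428 TPM.

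**Figure D1:**
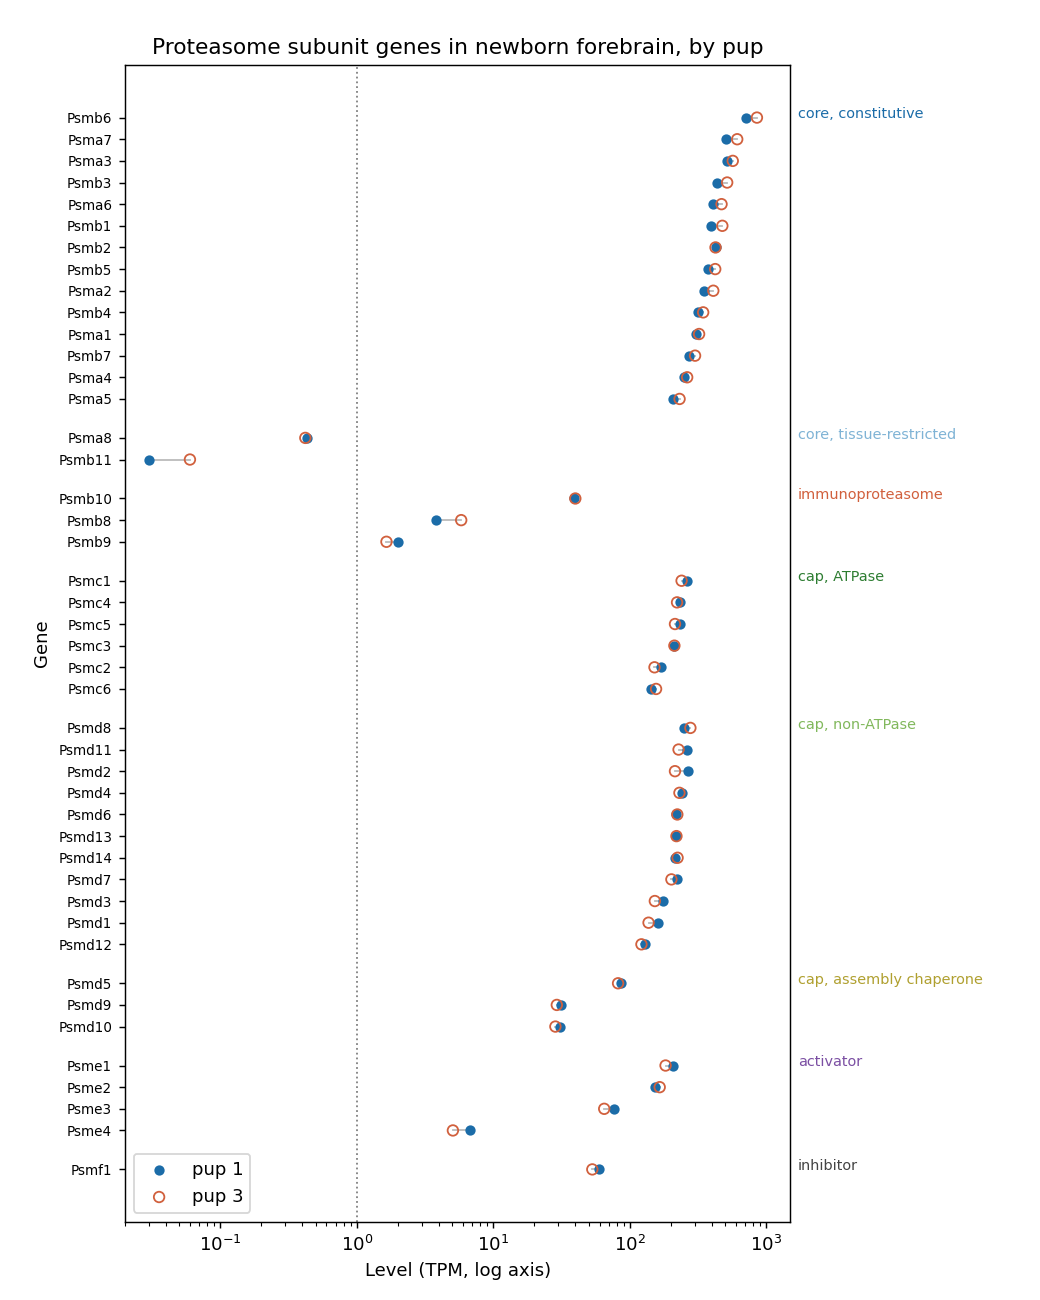
Level of each of the 44 genes in TPM (log axis), with pup 1 as filled and pup 3 as open circles, grouped by role; the dotted line marks 1 TPM. Constitutive core genes sit between 207 and 853 TPM, while Psma8 and Psmb11 are the only genes left of the line.

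A pair of core genes known from single tissues was near 0. Psma8, the alpha subunit of the testis proteasome (chromosome 18), had 0.43 TPM in pup 1 and 0.42 in pup 3, from 17 and 19 counts, with deposited intervals of 0.246 to 0.648 TPM and 0.258 to 0.635 TPM. Its closest core relative, Psma7, was 955 and 1180 times higher on TPM + 0.1. Psmb11, the beta subunit of thymic cortical epithelium, had 0.03 and 0.06 TPM, from 3 and 7 counts. It lies 3410 bases from Psmb5 on chromosome 14 on the opposite strand, with no protein-coding gene between them, and Psmb5 stood at 372 and 422 TPM. The deposited intervals of the pups overlapped for both Psma8 and Psmb11, so the pups could not be told apart at these counts.

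The immunoproteasome genes were far below the catalytic subunits they replace. Psmb8, the alternative to the chymotrypsin-like Psmb5, had 3.78 TPM in pup 1 and 5.82 TPM in pup 3, from 93 and 158 counts. Psmb5 was 95.8 and 71.3 times higher (log2 of Psmb8 over Psmb5 on TPM + 0.1, -6.37 ± 0.30, n = 2). Psmb9, the alternative to Psmb6, had 2 and 1.65 TPM, from 43 and 46.5 counts, and Psmb6 was 339 and 488 times higher (log2 -8.67 ± 0.37). Psmb10, the alternative to Psmb7, had 38.7 and 39.9 TPM, and Psmb7 was 6.98 and 7.52 times higher (log2 -2.86 ± 0.076). Exons of Psmb7 overlap those of Nek6 on the opposite strand by 405 bases, so the level of Psmb7 is less certain. Each of the 3 log2 differences had the same sign in both pups and was larger than 3 times its SD. By mean level Psmb10 stood at percentile 70.6 of detected protein-coding genes, Psmb8 at 20.9 and Psmb9 at 4.9. The deposited intervals of Psmb8 and Psmb9 overlapped in pup 1 (2.89 to 4.65 and 1.53 to 3.25 TPM) and were apart in pup 3 (4.76 to 6.81 and 1.3 to 2.78 TPM), and Psmb10 lay above both in each pup.

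**Figure D2:**
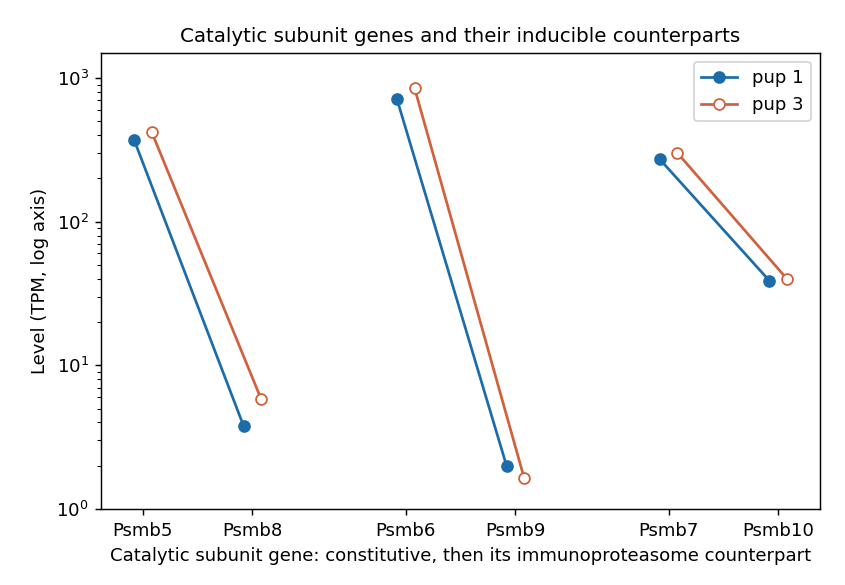
Level in TPM (log axis) of each constitutive catalytic gene and its immunoproteasome counterpart, with 1 line per pup. The drop is about 7-fold from Psmb7 to Psmb10 and over 300-fold from Psmb6 to Psmb9 in both pups.

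Psmb8 and Psmb9 lie 9956 bases apart on chromosome 17 (34197721 to 34201454 and 34181987 to 34187764) with Tap1, a peptide transporter of antigen presentation, between them, whereas Psmb10 lies on chromosome 8 (105935735 to 105938444). Exons of Psmb9 overlap those of Tap1 on the opposite strand by 212 bases. Tap1 had 4.38 and 3.86 TPM, and because strand use is not stated, reads of that overlap cannot be assigned. Other genes of antigen presentation and interferon response ranged from Nlrc5, an activator of class I genes, at 0.31 and 0.23 TPM to B2m, the class I light chain, at 132 and 148 TPM. Irf1, a transcription factor that takes part in induction by interferon-gamma, had 2.78 and 3.3 TPM. Microglia and macrophages are a cell type that can express Psmb8 and Psmb9. All 7 of their markers reached 1 TPM in each pup, with summed levels of 174 TPM in pup 1 and 173 TPM in pup 3, and the summed level of 4 endothelial markers was 137 TPM in both. Single markers differed more than these sums, which C1qa, C1qb, C1qc and Cldn5 dominate: Cx3cr1 had 9.16 and 4.25 TPM, P2ry12 6.94 and 5.39 TPM, and the endothelial receptor Kdr 10.9 and 6.71 TPM. Others went the other way, and 3 of 7 microglia and macrophage markers and 2 of 4 endothelial markers were higher in pup 3 in TPM. The 5 lymphocyte markers summed to 0.96 and 0.69 TPM, with Cd3g at 0 in both pups. The part of these cells in the Psmb8 and Psmb9 levels was not tested, and in whole tissue fewer cells of a type and less RNA per cell cannot be told apart.

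Cap genes were lower than core genes and closer to each other. The 6 ATPase genes had medians of 222 and 213 TPM, and the 11 non-ATPase genes, Psmd1 to Psmd4, Psmd6 to Psmd8 and Psmd11 to Psmd14, of 219 and 220 TPM. Psmc1 was the highest ATPase at 262 and 239 TPM (251 ± 16.1 TPM) and Psmc6 the lowest by mean at 142 and 156 TPM (149 ± 9.37 TPM), with Psmc2 next at 169 and 152 TPM (160.2 ± 12.2 TPM). The order of Psmc2 and Psmc6 was opposite in the pups. Psmd8, a subunit of the lid, led the non-ATPase genes at 250.4 and 278 TPM (264 ± 19.3 TPM). Psmd11, also of the lid, had 262 and 227.5 TPM (245 ± 24.6 TPM). Psmd2, the large base subunit that docks ubiquitin receptors, had 265 and 214 TPM (239 ± 35.7 TPM). These 3 genes changed order between the pups, Psmd2 leading in pup 1 and Psmd8 in pup 3. The lowest were Psmd12 at 129 and 122 TPM (126 ± 5.44 TPM), Psmd1 at 160 and 137 TPM (148 ± 16.0 TPM) and Psmd3 at 175 and 152 TPM (164 ± 16.2 TPM). Psmd14, the deubiquitinase of the lid, had 213 and 224 TPM, and Psmd4, a ubiquitin receptor, 242 and 231 TPM.

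Across the 17 ATPase and non-ATPase genes the median was 219 TPM in pup 1 and 214 TPM in pup 3, so the core median was 1.75 and 1.98 times that of the cap (log2 0.90 ± 0.12, n = 2). In each pup 12 of the 14 core genes lay above the highest cap gene, Psma4 and Psma5 being the exceptions. The difference belongs to the level per length: core transcripts had a median length of 990 nt and cap transcripts of 1483 nt, and with expected counts, which are not divided by length, the core median was 1.06 and 1.22 times that of the cap. On those counts 0 core genes in pup 1 and 1 in pup 3 lay above the highest cap gene. In TPM of coding transcripts only, 9 of 14 did in each pup. Across all genes the ratio of pup 3 over pup 1 fell with transcript length. The part of this in the change from 1.75 to 1.98 was not tested. The SD of log2 TPM among genes was 0.46 and 0.51 in the core, 0.33 and 0.28 among ATPases, and 0.32 and 0.37 among non-ATPases. Set beside these, it was 0.39 and 0.44 over 8 subunits of the chaperonin, 0.92 and 0.91 over 9 genes of the COP9 signalosome, a complex built like the lid, and 1.42 and 1.52 over 14 genes of the initiation factor eIF3. The lists were not built alike. That of eIF3 includes its lowest genes, Eif3j1 at 8.57 and 7.67 TPM and Eif3j2 at 20.9 and 20.3 TPM. That of the COP9 signalosome includes both Cops7a and Cops7b. The core was taken without Psma8, Psmb11 and the immunoproteasome genes. These spreads were not tested against each other.

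Promoters of the cap genes are shown because core and cap genes differed in level in TPM. A relation of promoter sequence to level was not tested. RefSeq promoters (GRCm38.p6, 250 bases before to 50 bases after a start site) matched 37 of the 44 members. Psma8, Psmb1, Psmb2, Psmb7, Psmc3, Psmd3 and Psmd7 were not matched. The letters CCGGAAG, the core of sites bound by ETS factors, were searched on both strands. They occurred in 9 of 14 promoters of ATPase and non-ATPase genes, in 1 of 11 promoters of constitutive core genes (Psma6) and in 2 of 4 activator promoters (Psme3 and Psme4). None of the 3 immunoproteasome or 3 assembly chaperone promoters held them. Over all members this was 12 of 37 promoters (32.4%), beside 18.9% of 10883 genes with a mean of 1 TPM or more and 9.93% of all 27025 genes. Each match below is in capitals, with 10 bases on either side, written along the strand of the gene.
Psmc1, chr12:100110164-100110190, plus strand: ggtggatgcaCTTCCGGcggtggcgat
Psmc2, chr5:21786713-21786739, plus strand: cgcggagctaCTTCCGGtggggaagag
Psmc6, chr14:45329714-45329740, plus strand: ggcgggccagCCGGAAGgggcggagcc
Psmd2, chr16:20651616-20651642, plus strand: ccgcagggcgCTTCCGGtctggaggac
Psmd4, chr3:95042723-95042749, minus strand: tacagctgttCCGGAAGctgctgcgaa
Psmd6, chr14:14120974-14121000, minus strand: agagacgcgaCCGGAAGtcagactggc
Psmd11, chr11:80428594-80428620, plus strand: gagggcgggtCTTCCGGgtgtgtgttt
Psmd12, chr11:107479501-107479527, plus strand: gagcgggcgaCTTCCGGtgcgagtgac
Psmd13, chr7:140882378-140882404, plus strand: gcccgcggtgCCGGAAGtgagcgagca

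These matches start between 125 and 6 bases before the start site (Psmd4 at -125, Psmd13 at -6). Psmc2 has a second match before another start site. The letters were chosen with the levels known, and a match is a description of sequence. The letters TGACNNNGC, the antioxidant response element core that binds Nfe2l1 and Nfe2l2, the factors known to raise proteasome genes when the proteasome is inhibited, occurred in 6 of 37 member promoters (16.2%), beside 16.7% of genes with a mean of 1 TPM or more. The remaining matches were in the cap genes Psmc6 and Psmd12, the assembly chaperone gene Psmd9 and the activator gene Psme4. In the constitutive core 2 of 11 promoters held them (18.2%), close to the share of genes with a mean of 1 TPM or more. These were the promoters of the catalytic genes Psmb5 and Psmb6. Psmb7, the other constitutive catalytic gene, had no matched promoter to search.
Psmb5, chr14:54618024-54618052, minus strand: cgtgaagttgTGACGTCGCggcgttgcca
Psmb6, chr11:70525338-70525366, plus strand: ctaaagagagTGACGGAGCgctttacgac

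The match of Psmb5 starts at -47 and that of Psmb6 at -9. The letters GAAA, any 2 bases and GAAA again, the pattern of interferon-stimulated response elements, were found on either strand in 4 of 37 member promoters and in 3.45% of genes with a mean of 1 TPM or more. The 4 were Psmb3, Psmd4, Psmd9 and the activator gene Psme1, and none of Psmb8, Psmb9 and Psmb10 held these letters in this window. Matches of different motifs did not overlap.

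Psmd5, Psmd9 and Psmd10 encode chaperones of ATPase assembly that leave the finished cap, and they were lower than its subunits. Psmd5 had 86.5 and 82 TPM (84.3 ± 3.14 TPM), Psmd9 31.5 and 29.2 TPM (30.3 ± 1.61 TPM) and Psmd10 30.6 and 28.5 TPM (29.5 ± 1.46 TPM). In each pup all 3 lay below the lowest of the 17 cap subunit genes. Among the alternative activators, Psme1 and Psme2, the interferon-inducible pair that forms a ring on the barrel, had 207 and 183 TPM and 154 and 165 TPM. They lie 5911 bases apart on chromosome 14 with Emc9 between them. Both stood in the range of the cap subunits, unlike Psmb8 and Psmb9, which interferon-gamma also induces. Psme3, the nuclear activator, had 76.1 and 64.9 TPM. Psme4, a large activator known for acetylated histones and spermatogenesis, had 6.78 and 5.06 TPM and was the lowest of the 4. Psmf1, an inhibitor of the barrel, had 59.6 and 53.1 TPM.

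In TPM, most members differed little between the pups, but not on scaled counts, as given with the core and cap ratios. The ratio of pup 3 over pup 1 was taken on TPM + 0.1, a scale that makes the ratios of low genes too small, for the 42 members with a mean of 1 TPM or more. None was 2-fold or more apart, beside 5.45% of all 14985 genes with a mean of 1 TPM or more. Those genes, to which the shares here refer, were not matched to the members by level. A single member, Psmb8, was at least 25% higher in pup 3 than in pup 1 (1.53 times, deposited intervals apart), beside 4.19% of all genes. Psme4 was the 1 member at least 25% higher in pup 1 than in pup 3 (pup 3 at 0.75 times pup 1, intervals apart), beside 43.5%. Psme4 was also the longest member, at 5615 nt. Its log2 ratio was 0.019 on scaled counts and 0.07 after centring on genes of like length. In all 22 of 42 members were higher in pup 3, beside 19.5% of genes. The deposited intervals of the pups were apart for 28 of the 42 members, beside 53.6% of genes. The median log2 ratio was 0.007 over the members and -0.268 over all 14985 genes.

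The ratio of pup 3 over pup 1 lay on opposite sides of 1 for most core and most cap genes, a difference that was not tested. Constitutive core genes were higher in pup 3 in 13 of 14 cases, with a median log2 ratio of 0.17 and a range from -0.024 to 0.27. The largest belonged to Psma7 (1.21 times) and Psmb1 (1.21 times), both with deposited intervals apart. Psmb2 was the exception at 0.984 times, with overlapping intervals. Of the 20 Psmc and Psmd genes, 6 were higher and 14 lower in pup 3, with a median log2 ratio of -0.094. Psmd2 was the lowest of them, at 0.809 times, and Psmd8 the highest, at 1.11 times. The direction of the cap depended on the scaling. On expected counts scaled by TMM, where the median of all genes was 0.032, all 20 cap genes and all 42 members were higher in pup 3, beside 53.8% of genes. On that scale 21 members were at least 25% higher in pup 3, beside 17.6%, and none was at least 25% higher in pup 1, beside 16.9%. The core median was 0.49 and the cap median 0.22 on that scale, so the core stood above the cap on both.

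Transcript length moved with this ratio across all genes. In 20 groups of genes by length, the median log2 ratio was -0.003 where the median length was 914 nt, -0.151 at 1513 nt and -0.293 at 2843 nt. In the range of constitutive core lengths, 769 to 1299 nt, 44.6% of 1879 genes were higher in pup 3, and in that of the 17 cap subunits, 1279 to 3019 nt, 16% of 6677 genes. After each ratio was centred on genes of like length, 13 of 14 core genes and 17 of 20 cap genes were above 0, and 36 of all 42 members, beside 50% of genes. The medians were then 0.20 in the core and 0.07 in the cap. The 5 blood markers were higher in pup 3 as well, summing to 2260 and 3210 TPM. In TPM all 4 neuron markers were lower in pup 3 (median log2 ratio -0.392, sums of 3700 and 3210 TPM). Most genes were lower on that scale, since only 19.5% of 14985 genes were higher in pup 3, with a median log2 ratio of -0.268. On TMM-scaled counts 2 of the neuron markers, Stmn2 and Tubb3, were higher in pup 3. Among forebrain markers Emx2 was 0.41 times as high in pup 3. The part of these cell types in the ratios was not tested.

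**Figure D3:**
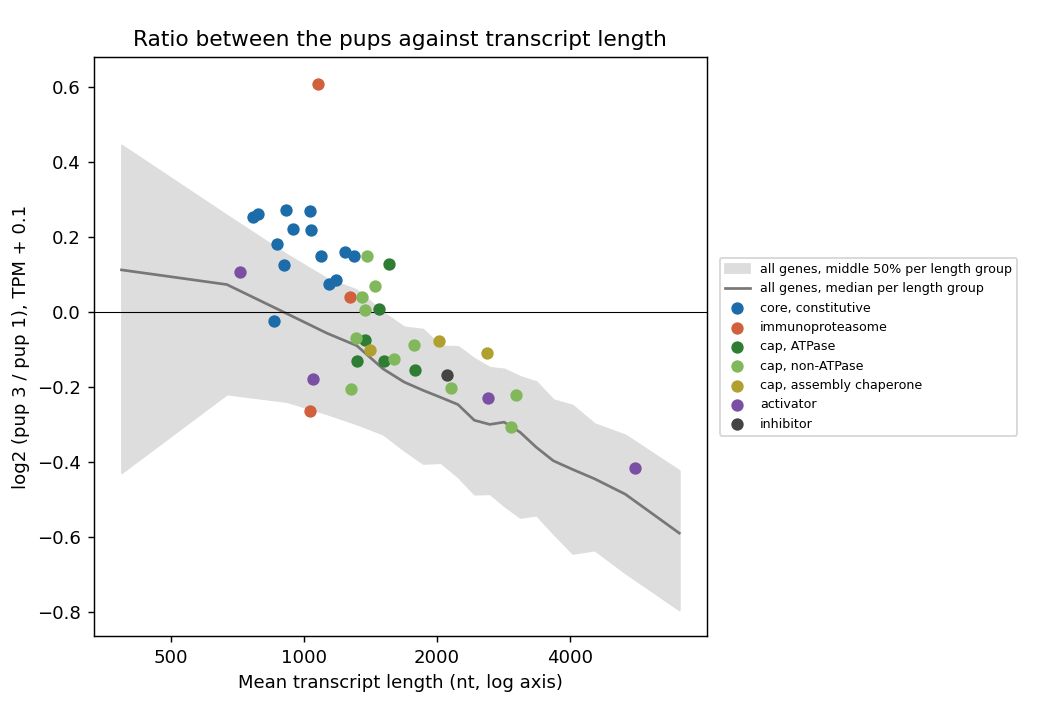
log2 ratio of pup 3 over pup 1 (TPM + 0.1) against mean transcript length (log axis) for the 42 members with a mean of 1 TPM or more; the grey line and band give the median and interquartile range of all 14985 genes in 20 groups of length. The line falls with length, and 13 of 14 constitutive core genes lie above it.

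Most members were carried by 1 coding transcript. The deposited share of the leading transcript in the TPM of its gene had a median of 95.7% over the 42 members (94.7% in pup 1 and 96.6% in pup 3), and for 40 members the pups shared the leading transcript. In 24 members the leading transcript exceeded 90% in both pups. Shares are model estimates, since overlapping transcripts share reads. Transcripts not annotated as protein-coding took a median of 2.33% and 1.43%, but over 20% in both pups in 4 members. For Psma3 they took 68.1% and 65.3%: Psma3-201, annotated for nonsense-mediated decay, held 33.9% and 27.6%, the retained-intron transcript Psma3-203 24.4% and 29%, and the order of these transcripts changed between the pups. The beta subunit gene Psmb4 was divided between the retained-intron transcript Psmb4-202, with 52.6% and 48.2%, and the coding Psmb4-201, with 45.9% and 48.3%. For Psmd13, a lid subunit, Psmd13-201 held 43.1% and 45.5%, Psmd13-211, annotated for nonsense-mediated decay, 28.6% and 25.6%, and a transcript of 361 nt without a match in GENCODE M21 15% and 15.9%. Exons of Psmd13 overlap those of Sirt3 on the opposite strand by 342 bases, and Sirt3 had 37.1 and 39.2 TPM. The activator gene Psme2 was the other, with 25.1% and 25.4% in retained-intron transcripts, of which a transcript of 185 nt, Psme2-203, held 19.8% and 18.9%.

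**Figure D4:**
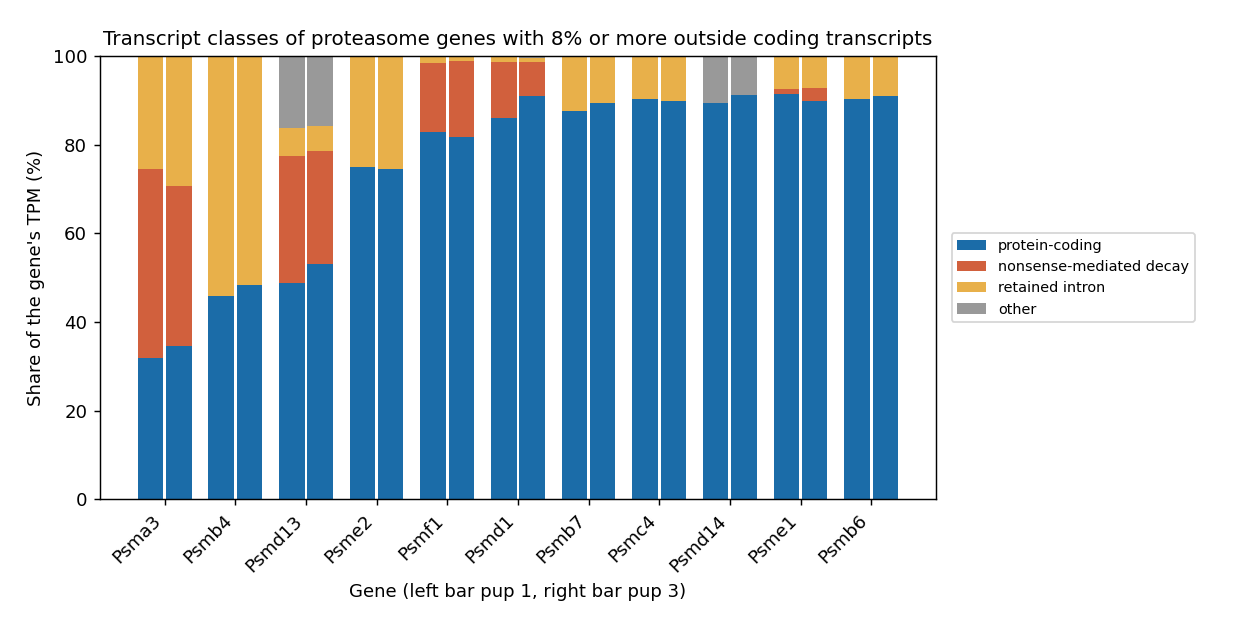
Share of each gene's TPM (%) by annotated transcript class, left bar pup 1 and right bar pup 3, for the 11 members with 8% or more outside protein-coding transcripts in both pups. Psma3 has 31.9% and 34.7% in coding transcripts, the smallest coding share of the 11.

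Counting only coding transcripts, Psma3 had 163 and 197 TPM and Psmb4 145 and 166 TPM, below every other constitutive core gene. Psma3 also has a near-identical copy in the tables. The processed pseudogene Gm13835 (chromosome 6, 31141979 to 31142663, minus strand) matched the leading Psma3 transcript at 100% identity over 661 aligned bases and was listed at 147 and 152 TPM, from 2147 and 2504 counts. Reads shared by Psma3 and this copy were divided by the authors' quantification, so both values are uncertain. Sequence searches used the leading transcript of each member, so copies of its other transcripts could be missed. For Psmb4 that was the retained-intron Psmb4-202. At 95% identity or more over at least 200 bases they found 12 such genes in the tables, 10 of them pseudogenes, for 9 members. Others, such as Gm3375 for Psmb5 at 98.9% identity, had no level in the tables. Apart from Gm13835 the largest was Gm14048, a copy of Psmd11, at 10 and 3.97 TPM, or 3.82% and 1.75% of the level of Psmd11. Psme2b, a protein-coding copy of Psme2 with 99.3% identity, stayed under 2 TPM in both pups. Psmc3ip, whose symbol begins like a subunit but which encodes a partner in meiotic recombination, had 16.7 and 21.3 TPM. Neither was counted as a member.

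Other genes of the pathway were described from lists. Assembly factors of the core differed among themselves: Pomp, the maturation factor of the barrel, had 368 and 431 TPM, near the core median, and the chaperones Psmg1 to Psmg4 ranged from 44.9 to 124 TPM. Psmg4 was 1.45 times higher in pup 3. Adrm1, a ubiquitin receptor of the cap, had 190 and 184 TPM, and Sem1, the smallest subunit of the lid, 118 and 140.1 TPM. Neither has a Psm symbol, so neither was a member, and both stood near or within the range of the cap subunits. The cap-bound deubiquitinase Usp14 had 160 and 119 TPM and Uchl5, the other, 57.2 and 50.7 TPM. Vcp, the ATPase that delivers unfolded substrates, had 384 and 297 TPM. Among genes that control proteasome transcription, Nfe2l1 had 53.9 and 39.2 TPM, Nfe2l2 10.9 and 11.7 TPM, and Ddi2, the protease that activates the Nfe2l1 protein, 9.28 and 6.59 TPM. None of the 31 measured pathway genes outside the members was 2-fold or more apart between the pups in TPM, beside 5.45% of all genes. On that scale 2 were at least 25% higher in pup 3 (Psmg4 and Rps27a, a ubiquitin fusion gene), beside 4.19% of all genes, and 9 were at least 25% higher in pup 1, beside 43.5%. The balance turned with the scaling: on TMM-scaled counts 6 were at least 25% higher in pup 3, beside 17.6%, and 1, Ddi2, was at least 25% higher in pup 1, beside 16.9%. The median log2 ratio of the 31 genes was -0.176 in TPM and 0.156 on TMM-scaled counts.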

How the data were processed

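Total RNA of 2 newborn forebrains was sequenced. The deposited notes name mm10 with GENCODE M4. No source used here names the aligner, the quantifier or the use of strand. The deposited expected counts divide shared reads between features; TPM, a posterior mean TPM, credibility bounds of unstated level and transcript shares in percent were used as deposited, per the file headers. GENCODE M21 on GRCm38, matched by identifier without its version, gave symbols, types and positions (42462 of 43346 genes). Levels are means ± SD of both pups. Ratios used TPM + 0.1; scaled counts used TMM (edgeR 4.0.16, R 4.3.3) plus 0.5 counts, with DESeq2 1.42.0 size factors as an alternative. The coefficient of variation came from edgeR on rounded counts (intercept only, filterByExpr, minimum count 10). Copies were sought with blastn 2.17.0 on the same strand. The remaining work ran in Python 3.11.15 (pandas 2.3.3, numpy 2.4.6, matplotlib 3.10.9). The fold rule, length centring and dispersion were tested on simulated data. Members, lists and motifs were chosen with earlier results of these data known. Named in full were the 3 highest and lowest core and cap genes, the immunoproteasome and its counterparts, Psma8, Psmb11, Psme1 to Psme4, Psmf1 and the members furthest apart between pups; other genes were named after their values were seen. Paaf1, 1 of the 9 listed assembly factors, was not measured. No test between conditions was possible.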

Additional observations from a re-analysis of the deposited data

How the results depend on the processing

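Among the recomputed values 61 stayed within the spread between the pups or the tolerance set for them, 18 moved beyond it and 3 reversed. The 61 include values whose outcome was fixed in advance. Leaving out 1 pup cannot move a mean of both pups beyond their SD, so the count of 61 is no measure of stability. The pup ratios were the least stable. With TMM and with DESeq2 size factors the members whose pups differed by at least 25% numbered 21 instead of 2, the median log2 ratio was 0.322 and 0.314 over the members, 0.486 and 0.478 in the constitutive core, and 0.22 and 0.211 in the cap, where it had been -0.094. Centring on length, chosen after seeing the data, gave 0.13 over the members and 0.074 in the cap. The cause of these shifts was not tested. With protein-coding transcripts only, the median was 344 TPM over all 16 core genes (388 TPM with all transcripts, 361 and 415 TPM with pup 1 or pup 3 alone) and 201 TPM in the cap (215 TPM; 213 to 215 TPM with 1 pup), the log2 SD among genes was 0.631 in the core (0.464 to 0.506 with 1 pup) and 0.427 among non-ATPases, and log2 of Psmb10 over Psmb7 was -2.681. With posterior mean TPM the cap median was 212 TPM. On counts not divided by length, log2 was -6.012 for Psmb8 over Psmb5, -8.19 for Psmb9 over Psmb6 and -2.625 for Psmb10 over Psmb7; a pseudocount of 1 gave -8.112 for Psmb9 over Psmb6. None of these turned the order of an immunoproteasome gene and its counterpart. No member was 2-fold apart under any of the 6 alternatives. The alternative that also required intervals apart could give no other result. Those on scaled counts kept the limit of a mean of 1 TPM. That limit left out Psmb11, whose log2 ratio on TMM-scaled counts was 1.219, from 3 and 7 counts. Ratios between pups cannot be recomputed without a pup. Depth limits Psmb9, Psma8 and Psmb11, which rest on fewer than 50 counts per library.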
